A study of Mus musculus with 24 samples.

Results

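The 39 genes described here encode the coagulation and complement factors that circulate in plasma, and they were chosen by gene name from the table of each of the 24 libraries. All 39 were found among 54733 genes, and all 39 passed the filter on low values, a mean of at least 1 FPKM over the 24 libraries, as did 11244 genes in all. FPKM is a count of fragments scaled by transcript length and library size, so levels of different genes are comparable per transcript length. Mean levels of the 39 ran from 20.6 FPKM for Pros1 to 2053 FPKM for Fga, 37 of them were at or above 20 FPKM in every library, and the lowest single value was 13.7 FPKM, for Pros1. The libraries were made from poly(A) RNA of livers of male C57BL/6 mice, either WT or ΔRRE, with 2 libraries per genotype at CT2, CT6, CT10, CT14, CT18 and CT22. Livers were collected in constant darkness and CT is the projected circadian time in hours. The ΔRRE mice carry a deletion of both RREs (the elements bound by ROR and REV-ERB proteins) of Bmal1, listed as Arntl in the files, on both alleles in every cell of the body, so the deletion is not restricted to hepatocytes, and neither genotype carries another allele or received an agent according to the labels. Mice used for tissue RNA in general were 8 to 24 weeks old, the labels give no age for single libraries, and mutant mice of a single line were the study's default. The files give no read counts, so the number of reads behind each value is unknown, and with 2 libraries per group the spread between libraries is the only measure of error.

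Coagulation is a cascade of proteases made mostly by hepatocytes as inactive precursors: each activates the next until thrombin cleaves fibrinogen to fibrin, while serpins, protein C with its cofactor protein S, and the plasmin system limit or dissolve the clot. Complement is a related plasma cascade in which lectins or antibodies recognise a surface, early proteases cleave C4 and C2, C3 is then deposited, and the terminal components assemble a pore in the target membrane. Both are supplied to the blood mainly by the liver, and several members, among them the fibrinogen chains and C3, belong to the acute-phase proteins whose synthesis rises with inflammatory cytokines.

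Arntl, the gene with the deleted elements, was read first as a check of the labels. In WT the 2 libraries had 12.6 and 13.2 at CT2, 2.42 and 2.86 at CT6, 0.195 and 0.0919 at CT10, 2.21 and 1.15 at CT14, 5.96 and 5.76 at CT18, and 10.3 and 11.2 at CT22 FPKM. In ΔRRE they had 3.58 and 3.16 at CT2, 3.01 and 4.21 at CT6, 2.50 and 2.1 at CT10, 2.59 and 2.49 at CT14, 2.70 and 3.24 at CT18, and 3.83 and 3.29 at CT22 FPKM. The WT wave had an amplitude of 2.57 on the log2 scale and the ΔRRE wave 0.29, and Arntl was the 1 gene of 11244 with an adjusted p under 0.05 for a difference in rhythm (adjusted p = 0.0463, limma). At CT2, CT10, CT18 and CT22 each library lay on its label's side, and at CT6 and CT14 the genotypes were close, so that Arntl checks little there. Hepatocyte markers were high in every library, with a mean of 27420.0 FPKM for Alb and 5842 for Apoa1. Markers of Kupffer cells (Clec4f, 12.3 FPKM), sinusoidal endothelium (Stab2, 3.74), stellate cells (Lrat, 1.86), cholangiocytes (Krt19, 1.0) and platelets (Pf4, 0.511) were low beside them. The most abundant of the stellate cell and cholangiocyte lists were higher, Ecm1 at 26.3 and Spp1 at 23.5 FPKM. In bulk liver, fewer cells of a type and less RNA per cell cannot be told apart.

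Among the ΔRRE libraries 3 stood farthest from the rest in acute-phase genes. In CT10 replicate 1, CT10 replicate 2 and CT14 replicate 1, the summed level of 20 acute-phase genes was 15712, 11427 and 18891 FPKM, against 5043 to 9416 (median 6151) FPKM over the 12 WT libraries. ΔRRE CT22 replicate 1 and ΔRRE CT6 replicate 1, at 10011 and 9896 FPKM, also lay above every WT library. ΔRRE CT14 replicate 2, the other library of its group, had 5918 FPKM. Summed blood markers, mostly globin mRNAs, reached 4325 FPKM in ΔRRE CT10 replicate 1 and 4463 in ΔRRE CT14 replicate 1, against 1273 in ΔRRE CT10 replicate 2 and 466 to 1538 (median 844) in WT. Of the 39 genes, 22 had their highest value of all 24 libraries in 1 of these 3: 15 in ΔRRE CT10 replicate 1 or 2, as had 10.4% of all genes tested, and 7 in ΔRRE CT14 replicate 1, as had 9.62%. This set of libraries was picked after their values were seen. The counts of the joint rhythm test and of the unadjusted level test are given with and without CT14 replicate 1 and CT10. Counts by direction and by time of the highest or lowest mean are given with all libraries only.

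The summed level of the 39 genes was 11518 to 16994 (median 14061) FPKM in WT libraries and 12261 to 22461 (median 16296) in ΔRRE libraries. That was 1.84% of all FPKM in WT CT18 replicate 1, the lowest, and 3.99% in ΔRRE CT10 replicate 1, the highest. In ΔRRE 4 sums lay above every WT sum, of which 3 (22461, 21759 and 20154 FPKM) belonged to the libraries named above and the fourth (18698) to ΔRRE CT6 replicate 1. The other 8 ΔRRE sums lay inside the WT range, the lowest being 12261 and 12314 FPKM. Replicate libraries differed by a median SD of 0.19 log2 for the 39 genes, against 0.25 over all genes tested and 0.18 over the 2444 genes at or above the level of the lowest of the 39.

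**Figure D1:**
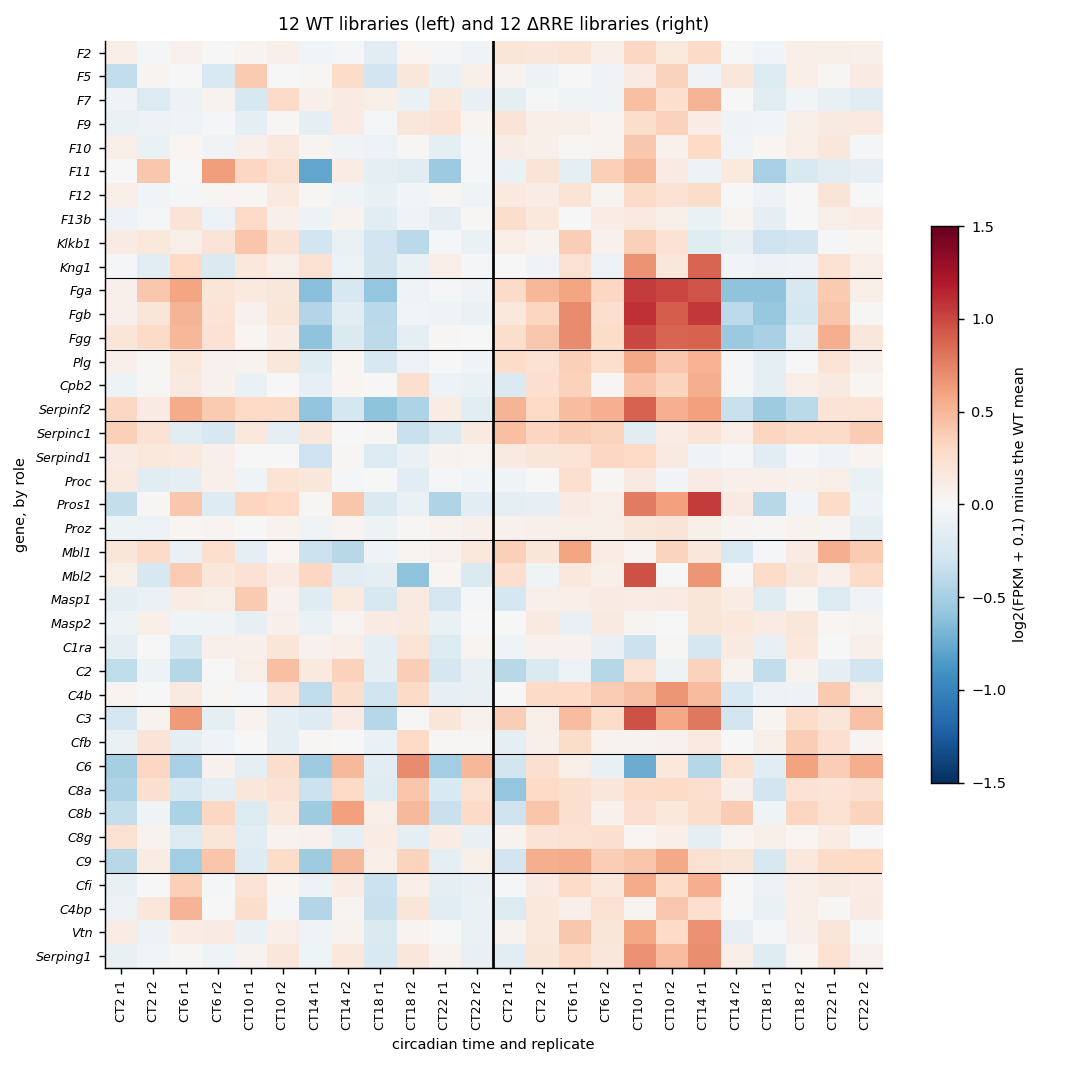
Level of the 39 genes (y axis, grouped by role) in the 12 WT and 12 ΔRRE libraries (x axis, circadian time and replicate), as log2(FPKM + 0.1) minus the gene's mean over the WT libraries, with red for higher and blue for lower. The darkest red squares lie in the columns of ΔRRE CT10 replicate 1, CT10 replicate 2 and CT14 replicate 1, among them squares of the fibrinogen chains, C3, Pros1 and Mbl2, while ΔRRE CT14 replicate 2 is blue in the fibrinogen rows.

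Whether the genes cycled was tested by a harmonic regression with a period of 24 h on log2(FPKM + 0.1), fitted with limma over all 11244 genes. Over both genotypes together, 8 of the 39 genes (20.5%) had an adjusted p under 0.05, near the 18.7% of all genes tested that did: Fga, Fgb, Klkb1, Serpinf2, Serpind1, Pros1, Mbl1 and C2. Plg and Fgg fell just outside, with adjusted p-values of 0.0502 and 0.0538 by limma's F-test. In WT alone 6 genes passed (15.4%, against 10.3% of all genes tested): Fga, Fgb, Fgg, Klkb1, Mbl1 and Serpinf2. In ΔRRE alone 0 passed, against 4.57% of all genes tested, although 13 of the 39 had an unadjusted p under 0.05, against 22.6% of all genes tested. A pass in WT and not in ΔRRE is not a difference between them. The test of that difference passed for 0 of the 39 at an adjusted p under 0.05, against 0.00889% of all genes tested, and for 0 at an unadjusted p under 0.05, against 2.84%. The smallest unadjusted p for a difference was 0.128, for F13b. Without ΔRRE CT14 replicate 1, 9 genes passed the joint test, against 16.8% of all genes tested. Without CT10 3 passed (Klkb1, Serpind1 and Serpinf2), against 10.4%, and without both 8, against 9.52%.

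In WT, 15 of the 39 genes had their highest time-point mean at CT10, against 21.5% of all genes tested, and 10 had it at CT6, against 17.2%. In ΔRRE, 25 had it at CT10, against 18.9% of all genes tested. CT18 was the time of the lowest mean for 12 of the 39 in WT (21.8% of all genes tested) and for 22 in ΔRRE (16.8%). The counts for CT10 in ΔRRE rest on the pair of libraries that stood apart in acute-phase genes.

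Whether the genotypes differed in level was tested with limma as a genotype term averaged over the 6 time points. None of the 39 passed at an adjusted p under 0.05 (0.00% of all genes tested did), and the smallest adjusted p of the 39 was 0.332, for Plg. At an unadjusted p under 0.05, 17 of the 39 (43.6%) were higher in ΔRRE, against 7.16% of all genes tested, and 0 were lower, against 1.75%. Without each of the 24 libraries in turn, 11 of the 17 kept an unadjusted p under 0.05 in all 24 fits, while Fga lost it in 13, F10 and Mbl2 in 11, Fgb in 9, F9 in 6 and C4b in 5. Each of these fits shares all libraries but 1 with the fit that picked the 17, so a kept call is not separate evidence. The share of all genes called that kept the call is not given here. By direction alone, 37 of the 39 were higher in ΔRRE and C1ra and C2 were lower, against 65.5% higher among all genes tested. The median difference of the 39 was 0.12 log2 and that of all genes tested 0.04. With the libraries rescaled by the median of ratios, 10 of the 39 were higher at an unadjusted p under 0.05, against 3.73% of all genes tested, and the median difference of the 39 was 0.08 log2. Leaving out ΔRRE CT14 replicate 1 left 12 such genes, against 5.99% of all genes tested. Leaving out CT10 left 7, against 6.11%, and leaving out both left 4 (F2, Mbl1, Plg and Serpinc1), against 5.08%. No gene had all 12 ΔRRE values above all 12 WT values.

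**Figure D2:**
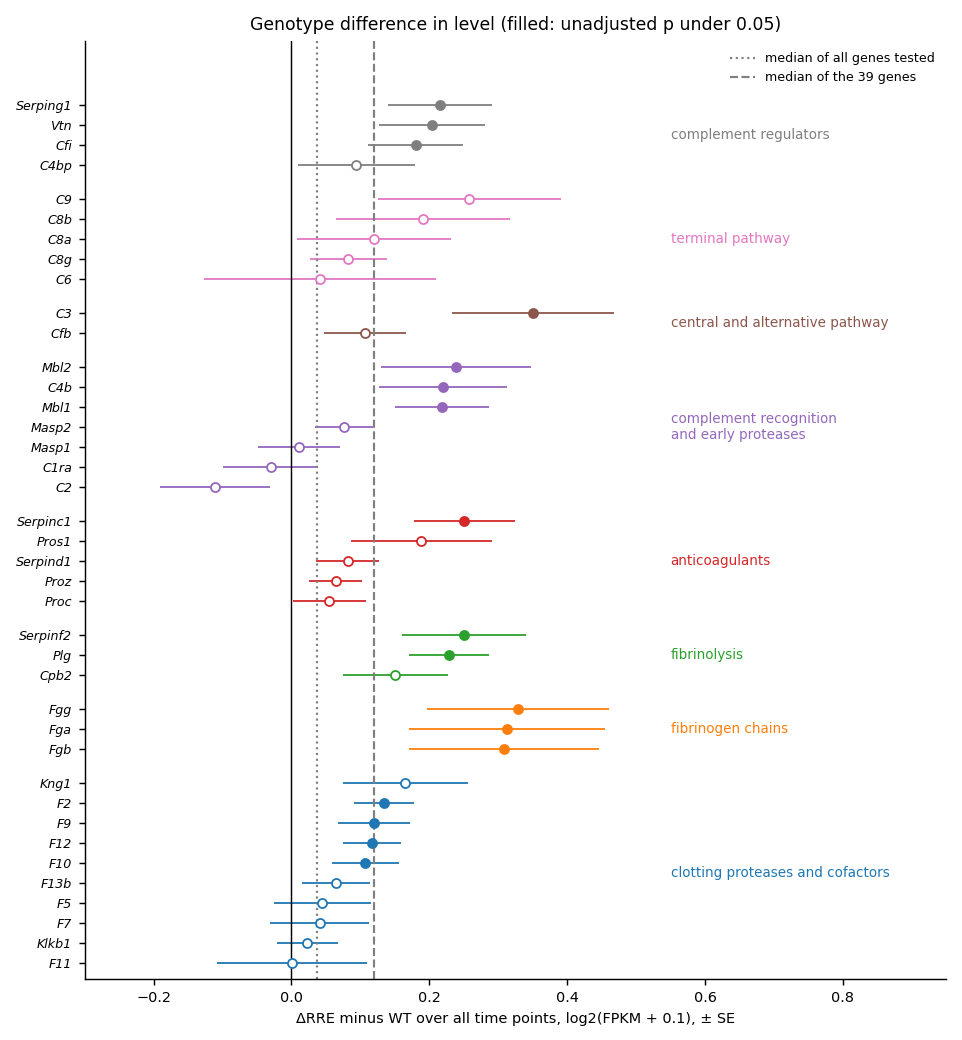
Difference in level between ΔRRE and WT (x axis, log2(FPKM + 0.1), limma estimate ± SE over 12 libraries per genotype) of each of the 39 genes (y axis, grouped and coloured by role), with filled points for an unadjusted p under 0.05. All but C1ra and C2 lie right of 0, and the median of the 39 genes (dashed, 0.12) lies right of the median of all genes tested (dotted, 0.04).

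At single time points, with the spread pooled over the 12 groups, none of the 39 passed at an adjusted p under 0.05 by limma (0.0534% of all genes tested passed at 1 time point or more). At an unadjusted p under 0.05, the genes higher in ΔRRE numbered 0 at CT2 (1.61% of all genes tested), 8 at CT10 (3.52%), 1 at CT14 (3.11%), 2 at CT18 (3.04%) and 1, Serpinc1 in both cases, at CT6 and at CT22 (4.69% at either). None was lower at any time point, against 7.84% of all genes tested. The 8 at CT10 were Fga, Fgb, Fgg, C3, Plg, Cpb2, F9 and Serping1. Both ΔRRE values lay above both WT values in 7 of the 39 genes at CT2 (18.6% of all genes tested), 13 at CT6 (16.2%), 22 at CT10 (17.4%), 4 at CT14 (17.4%), 7 at CT18 (24.5%) and 22 at CT22 (21.7%). At CT22 the separation was as frequent as at CT10, with a median difference of 0.16 log2 against 0.21. Of the Kupffer cell markers 8 of 8 were lower in ΔRRE by direction at CT2 (median -0.86 log2). At CT22 8 of 8 were higher (median 0.78 log2, 0 at an unadjusted p under 0.05), with sums of 14.5 and 45.4 FPKM in WT and 49.9 and 40.6 in ΔRRE. The 14.5 FPKM, in WT CT22 replicate 1, was the lowest Kupffer cell sum of all libraries. The 1 platelet marker that could be tested was higher at CT22 by 1.09 log2 at an unadjusted p under 0.05. Of 19 acute-phase genes 14 were higher at CT22 by direction and 5 lower (median 0.40 log2), and 6 of 6 blood markers were higher (median 0.13). None of either list had an unadjusted p under 0.05 there by limma. ΔRRE CT22 replicate 1 had an acute-phase sum of 10011 FPKM, above every WT library. What part any of these lists had in the differences of the 39 genes was not tested. The count at CT10 turned on single libraries. It was 1 (C3) without WT CT10 replicate 1 (4.81% of all genes tested) and 6 without WT replicate 2 (3.02%). It was 1 (F9) without ΔRRE CT10 replicate 1 (2.63%) and 8 without ΔRRE replicate 2 (3.43%). In the fits that left 1 gene, the difference of Fgb was 0.82 and 0.79 log2, against 0.88 with all libraries. These fits leave a group with 1 library, which is assumed to vary like the other groups. At CT18, 22 of the 39 were higher in ΔRRE by direction, against 67.6% of all genes tested, with a median of 0.04 log2 against 0.09.

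The clotting proteases and their cofactors were F2 (prothrombin), F7, F9, F10, F11 and F12 (serine protease precursors), F5 (the cofactor of factor X), F13b (the carrier subunit of the fibrin crosslinking enzyme), Klkb1 (plasma prekallikrein) and Kng1 (kininogen). Mean levels ran from 33.9 FPKM for F11 to 875 for Kng1, whose reads could in part belong to its close relative Kng2. Klkb1, which starts the contact pathway together with F12, was the member of this group with a rhythm. Its WT values were 67.4 and 68.9 at CT2, 65.6 and 70.5 at CT6, 82.2 and 71.9 at CT10, 50.5 and 57.6 at CT14, 50.6 and 46.4 at CT18, and 60.3 and 57.7 at CT22 FPKM. Its ΔRRE values were 66.3 and 63.7 at CT2, 79.9 and 64.3 at CT6, 79.3 and 71.9 at CT10, 54.4 and 57.1 at CT14, 49.8 and 50.5 at CT18, and 60.2 and 62.7 at CT22 FPKM. Both genotypes were high from CT2 to CT10 and low at CT14 and CT18, and the values of the genotypes overlapped at 5 of the 6 time points, with both ΔRRE values just below both WT values at CT2. The amplitude, the height of the fitted peak above the fitted mean, was 0.28 ± 0.06 log2 (SE) with a peak at 6.18 h in WT and 0.26 ± 0.05 with a peak at 6.33 h in ΔRRE (joint adjusted p = 0.00158, limma, under 0.05 also without each of the 24 libraries in turn). In level Klkb1 differed by 0.02 ± 0.04 log2 (SE, unadjusted p = 0.607, limma).

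The other 9 of this group did not pass the joint rhythm test, with F11 nearest (adjusted p = 0.0637, limma, amplitude 0.34 ± 0.13 log2 in WT and 0.26 ± 0.08 in ΔRRE). F11 was also the least even, from 19.2 to 51.1 FPKM over the WT libraries. In level, 4 of the 10 (F2, F9, F10 and F12) were higher in ΔRRE at an unadjusted p under 0.05, F2 and F12 also without each library in turn. The 10 differences ran from 0.00 for F11 to 0.17 log2 for Kng1, which was 0.10 to 0.21 log2 without each library in turn. Prothrombin mRNA varied little: F2 ran from 568 to 689 FPKM in WT (median 641) and from 625 to 797 in ΔRRE (median 699), both ΔRRE values lay above both WT values at every time point but CT18, and the difference was 0.13 ± 0.04 log2 (SE, unadjusted p = 0.00611, adjusted p = 0.396, limma). An exact permutation test over all 46656 ways to exchange the genotype labels within time points gave a two-sided p = 0.00030 for F2, unadjusted, where the smallest it can give is 4.29e-05. F12 had a difference of 0.12 ± 0.04 log2 (SE) and the same kind of narrow range, from 185 to 221 FPKM in WT (median 199.7) and from 189 to 243 in ΔRRE (median 219). F5, F7, F11, F13b and Klkb1 had differences under 0.1 log2, with standard errors between 0.04 and 0.11. F2, F11 and F12 were picked for description after their values were seen.

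Fibrinogen, the precursor of fibrin, is built from 3 chains whose genes are neighbours on chromosome 3 of GRCm38 (mm10): Fgg (γ chain, chr3:83007724-83015049, plus strand), Fga (α chain, chr3:83026076-83033627, plus strand) and Fgb (β chain, chr3:83040141-83049863, minus strand). The chains had the largest genotype differences of the 39 genes at CT10 and moved together over the libraries, so the sequences just before their start sites are shown. They are RefSeq promoter sequences of build GRCm38.p6, 5′ to 3′ on the gene's strand, 250 bases ending at the start site, except for Fga, whose stretch ends where the GENCODE gene begins. Capitals mark matches to TTCNNNGAA, a spacing bound by STAT proteins, which carry the interleukin-6 signal, or to AGGTCA, the core site of many nuclear receptors including ROR and REV-ERB, searched on both strands.
Fga, chr3:83025903-83026075, plus strand: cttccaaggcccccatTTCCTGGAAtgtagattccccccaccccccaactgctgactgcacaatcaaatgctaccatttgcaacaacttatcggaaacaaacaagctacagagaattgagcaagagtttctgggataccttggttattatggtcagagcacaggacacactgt
Fgb, chr3:83049864-83050113, minus strand: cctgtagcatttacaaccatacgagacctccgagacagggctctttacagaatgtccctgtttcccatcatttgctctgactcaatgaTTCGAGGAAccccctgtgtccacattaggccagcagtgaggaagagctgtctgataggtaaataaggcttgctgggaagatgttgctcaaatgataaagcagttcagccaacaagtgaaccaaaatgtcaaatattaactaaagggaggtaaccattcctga
Fgg, chr3:83007474-83007723, plus strand: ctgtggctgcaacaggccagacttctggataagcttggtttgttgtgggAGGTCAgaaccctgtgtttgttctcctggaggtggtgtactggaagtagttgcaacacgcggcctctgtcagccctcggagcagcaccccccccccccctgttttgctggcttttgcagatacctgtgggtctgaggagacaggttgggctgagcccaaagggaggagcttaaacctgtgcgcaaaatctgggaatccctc
Fga held 1 match to TTCNNNGAA and Fgb 1, and Fgg held 1 match to AGGTCA. Of the 39 genes 30 had a RefSeq promoter, and in their 250 bases TTCNNNGAA occurred in 6 (Fga, Fgb, F9, Pros1, C8a and Masp2), against 7.02% of 32851 promoters of this length, and AGGTCA in 10 (Fgg, F2, F5, F7, F10, C3, C6, C8b, Mbl2 and Serpinf2), against 14.0%. TTC and GAA spaced by 4 bases occurred in C8b and Pros1 (5.85% of all promoters), and the E-box CACGTG (6.02%), the D-box spellings TTATGTAA (0.819%) and TTACGTAA (0.113%), the C/EBP palindrome TTGCGCAA (0.164%) and the HNF1 palindrome (0.00913%) in none. These are matches of letters in this window and not measured binding sites.

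Fga, with a mean of 2053 FPKM the most abundant of the 39 genes, had WT values of 1830.3 and 2311 at CT2, 2627 and 1984 at CT6, 1931 and 1956 at CT10, 1125 and 1480.1 at CT14, 1169 and 1676 at CT18, and 1724 and 1681 at CT22 FPKM. Its ΔRRE values were 2135 and 2453 at CT2, 2631 and 2168 at CT6, 3614 and 3503 at CT10, 3345 and 1150.0 at CT14, 1148 and 1477 at CT18, and 2292 and 1869.9 at CT22 FPKM. WT was highest at CT6 and lowest at CT14, while ΔRRE was highest at CT10, where both values lay above every WT value, and its CT14 libraries differed 2.91-fold from each other. The Fgb values in WT were 1011 and 1092 at CT2, 1364 and 1105 at CT6, 1000.2 and 1090.0 at CT10, 708 and 859 at CT14, 727 and 934 at CT18, and 916 and 897 at CT22 FPKM. In ΔRRE, Fgb read 1068 and 1197 at CT2, 1568 and 1147 at CT6, 2046 and 1807 at CT10, 2005 and 734 at CT14, 649 and 798 at CT18, and 1278 and 970.3 at CT22 FPKM. Fgb followed Fga, and both of its ΔRRE values at CT10 lay above every WT value. For Fgg the WT libraries had 1890.0 and 2022 at CT2, 2355 and 1941 at CT6, 1696 and 1804 at CT10, 1096 and 1430.0 at CT14, 1268 and 1513 at CT18, and 1688 and 1658 at CT22 FPKM. The ΔRRE libraries had 1999 and 2194 at CT2, 2711 and 2006 at CT6, 3336 and 3054 at CT10, 3082 and 1131 at CT14, 1189.7 and 1515 at CT18, and 2423 and 1869 at CT22 FPKM. In all 3 chains both ΔRRE values lay above both WT values at CT10 and CT22, the genotypes overlapped at the other 4 time points, and ΔRRE CT14 replicate 1 was close to the CT10 libraries while replicate 2 lay among the lowest ΔRRE values.

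At CT10 Fga averaged 3559 ± 78.5 FPKM in ΔRRE and 1943 ± 17.6 in WT (SD, n = 2), a difference of 0.87 ± 0.35 log2 (SE; unadjusted p = 0.0225, adjusted p = 0.66, limma), and Fgb and Fgg differed by 0.88 ± 0.32 and 0.87 ± 0.32. Leaving out any 1 of the 4 libraries of CT10 kept the difference of Fga between 0.85 and 0.90 log2, with unadjusted p-values from limma of 0.0583 to 0.0707. At CT14 the difference was 0.60, 0.64 and 0.58 log2 for Fga, Fgb and Fgg with both ΔRRE libraries. Without ΔRRE CT14 replicate 1 it was -0.17, -0.09 and -0.15, so that library turned the sign. Without replicate 2 of the same group it was 1.37, 1.36 and 1.3, in a fit that leaves 1 ΔRRE library at CT14. At CT18 the estimates for the 3 chains were -0.10, -0.20 and -0.05 log2, within their standard errors of 0.32 to 0.35.

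Over all time points Fgg, Fga and Fgb were higher in ΔRRE by 0.33 ± 0.13 log2 (SE; unadjusted p = 0.0217, limma), 0.31 ± 0.14 log2 (SE; unadjusted p = 0.0397, limma) and 0.31 ± 0.14 log2 (SE; unadjusted p = 0.0363, limma), none of which passed after adjustment. Exact permutation tests of the same kind gave two-sided, unadjusted p = 0.028, 0.0496 and 0.0469. Without ΔRRE CT14 replicate 1 the difference of Fga was 0.20 log2, without CT10 0.20, and without both 0.06, with unadjusted p-values of 0.0747, 0.214 and 0.545 by limma. The rescaled libraries gave 0.27 log2 (unadjusted p = 0.0688, limma). The acute-phase sum was high together with these chains in the 3 libraries named above and the blood sum in 2 of them (not in ΔRRE CT10 replicate 2), and their part in the genotype difference was not tested.

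As rhythms, the chains had amplitudes of 0.40 ± 0.09 (Fga), 0.30 ± 0.06 (Fgb) and 0.37 ± 0.06 (Fgg) log2 in WT with fitted peaks at 4.66, 5.18 and 4.19 h. In ΔRRE they were 0.49 ± 0.20, 0.49 ± 0.19 and 0.41 ± 0.19 with peaks at 7.29, 8.12 and 7.15 h, later by the estimate but not by a test: the unadjusted p for a difference in rhythm was 0.331, 0.217 and 0.31 by limma, and 0.446, 0.325 and 0.443 by the exact permutation test. In WT all 3 chains passed (adjusted p = 0.0272, 0.0319 and 0.0145, limma), Fgg also without each of the 12 WT libraries in turn, Fga in 9 and Fgb in 4 of those 12 fits, with the largest adjusted p of each without WT CT18 replicate 1 (0.0738 for Fga and 0.0848 for Fgb). In the joint test Fga and Fgb passed (adjusted p = 0.0376 and 0.0432) and Fgg did not (0.0538, limma). Of the 24 fits without 1 library, 15 kept the call of Fga and 5 that of Fgb. Without ΔRRE CT14 replicate 1 the joint adjusted p was 0.0132, 0.0139 and 0.0195 for Fga, Fgb and Fgg, so all 3 passed.

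**Figure D3:**
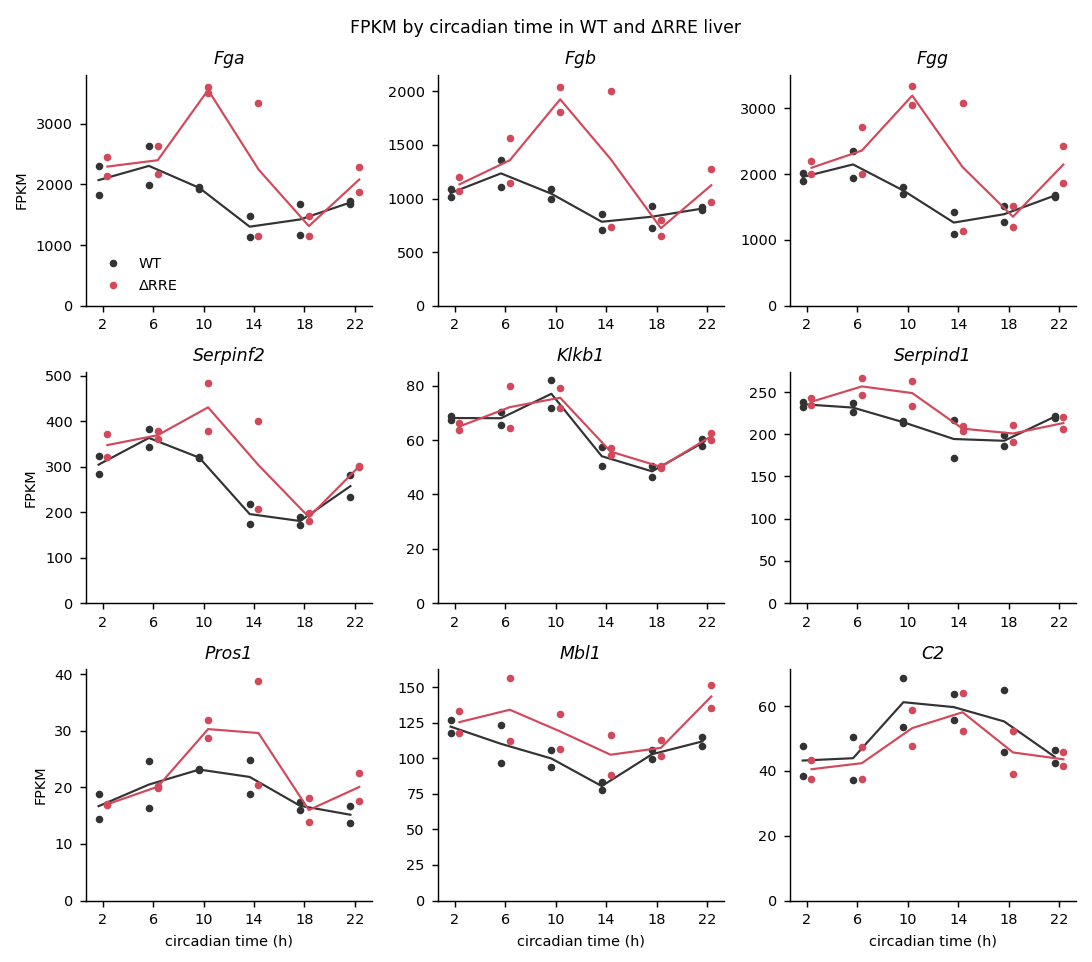
FPKM (y axis, from 0) by circadian time (x axis, hours) of the 8 genes that passed the joint rhythm test and of Fgg, with 1 point per library (WT black, ΔRRE red) and lines through the means of 2 libraries. The fibrinogen chains, Serpinf2 and Pros1 have 1 high and 1 low ΔRRE library at CT14, and the ΔRRE points of Serpind1 lie above the WT points at CT6 and CT10.

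Of the fibrinolysis genes, Plg encodes plasminogen, the precursor of the protease that dissolves fibrin, Cpb2 a carboxypeptidase that protects fibrin from it, and Serpinf2 alpha-2-antiplasmin, the main inhibitor of plasmin. Serpinf2 (chr11:75431732-75439591, minus strand) had the largest WT amplitude among the 39 genes. Its WT libraries read 324 and 285 at CT2, 384 and 343 at CT6, 321 and 319 at CT10, 173 and 218 at CT14, 171 and 189.9 at CT18, and 281 and 233 at CT22 FPKM. The ΔRRE libraries read 373 and 323 at CT2, 360.0 and 379 at CT6, 484 and 378 at CT10, 399.6 and 208 at CT14, 181 and 198 at CT18, and 300.3 and 302 at CT22 FPKM. The highest WT time-point mean (CT6) was 2.01 times the lowest (CT18), and in ΔRRE the highest (CT10) was 2.28 times the lowest (CT18). The amplitude was 0.51 ± 0.07 log2 with a peak at 5.29 h in WT and 0.46 ± 0.13 with a peak at 6.58 h in ΔRRE (joint adjusted p = 0.00107, limma), and the joint call held without each library in turn (adjusted p up to 0.00359). In level Serpinf2 was higher in ΔRRE by 0.25 ± 0.09 log2 (SE; unadjusted p = 0.0112, adjusted p = 0.438, limma), with both ΔRRE values above both WT values at CT10 and CT22. It was also the 1 gene of the 39 with an unadjusted p under 0.05 at CT14 (0.57 log2, unadjusted p = 0.023, limma). Without ΔRRE CT14 replicate 1 that difference was 0.09 log2, and without replicate 2 of the same group it was 1.04 log2.

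Plg, picked here because its p for the genotype level was the smallest of the 39, ran from 626 to 832 FPKM in WT (median 751) and from 676 to 1095 in ΔRRE (median 875). Both ΔRRE values lay above both WT values at CT2, CT6, CT10 and CT22. The difference was 0.23 ± 0.06 log2 (SE; unadjusted p = 0.000807, adjusted p = 0.332, limma), it was positive at all 6 time points, and it was 0.15 log2 without CT10 and ΔRRE CT14 replicate 1 (unadjusted p = 0.00854, limma). The exact permutation test gave a two-sided, unadjusted p = 0.000257. Cpb2 ran from 169 to 218 FPKM in WT (median 185) and from 159 to 269 in ΔRRE (median 199.6) and differed by 0.15 ± 0.08 log2 (SE, unadjusted p = 0.0624, limma). Serpinf2, Plg and Cpb2 had both ΔRRE values above both WT values at CT10, where the ΔRRE libraries were high in acute-phase genes, whose part was not tested. The WT wave of Cpb2 had an amplitude of 0.01 ± 0.05 log2 and the ΔRRE wave 0.18 ± 0.09 (SE; unadjusted p for a difference in rhythm = 0.273, limma).

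The anticoagulants were Serpinc1 (antithrombin) and Serpind1 (heparin cofactor II), serpins that inactivate thrombin, Proc (protein C), Pros1 (its cofactor protein S) and Proz (a cofactor for the inhibition of factor X). Serpind1 and Pros1 passed the joint rhythm test. Serpind1 had WT values of 233 and 239 at CT2, 237 and 226 at CT6, 213 and 216 at CT10, 172 and 217 at CT14, 186 and 199 at CT18, and 222 and 219.7 at CT22 FPKM. Its ΔRRE values were 235 and 243 at CT2, 247 and 266 at CT6, 264 and 234 at CT10, 204 and 209 at CT14, 191 and 211 at CT18, and 206 and 221 at CT22 FPKM. The range was narrow, with the highest WT time-point mean 1.23 times the lowest, and the ΔRRE values lay above the WT values at CT6 and CT10 only. The amplitude was 0.16 ± 0.04 log2 with a peak at 3.58 h in WT and 0.19 ± 0.03 with a peak at 6.08 h in ΔRRE (joint adjusted p = 0.00418, limma), and the call held without each of the 24 libraries in turn. Small replicate spread (SD 0.09 log2) accompanied this small amplitude.

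Pros1, the least abundant of the 39 at a mean of 20.6 FPKM, had WT values of 14.5 and 18.9 at CT2, 24.7 and 16.4 at CT6, 23.3 and 23.0 at CT10, 18.8 and 24.9 at CT14, 16.1 and 17.4 at CT18, and 13.7 and 16.7 at CT22 FPKM. In ΔRRE they were 17.0 and 17.1 at CT2, 20.3 and 19.96 at CT6, 32.0 and 28.7 at CT10, 38.9 and 20.4 at CT14, 14.0 and 18.1 at CT18, and 22.5 and 17.6 at CT22 FPKM. The genotypes overlapped at CT2, CT6, CT14 and CT18, and the highest value of all, in ΔRRE CT14 replicate 1, was 1.91 times that of replicate 2. The waves peaked at 10.4 h in WT and 11.1 h in ΔRRE, with amplitudes of 0.31 ± 0.08 and 0.39 ± 0.14 log2 (joint adjusted p = 0.0287, limma). The call was lost without WT CT22 replicate 1 (adjusted p = 0.0549), ΔRRE CT10 replicate 1 (0.0666) or ΔRRE CT10 replicate 2 (0.0569, limma). Its peak came later in the day than those of the fibrinogen chains in both genotypes by the fitted values, which were not tested against each other.

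Antithrombin did not follow the CT10 pattern. Serpinc1 had WT values of 586 and 537 at CT2, 407 and 388 at CT6, 509.7 and 417 at CT10, 515 and 459.7 at CT14, 463 and 363 at CT18, and 393 and 503 at CT22 FPKM. Its ΔRRE values were 627 and 573 at CT2, 588 and 575 at CT6, 407 and 492 at CT10, 527 and 491 at CT14, 570.4 and 559.7 at CT18, and 559 and 594 at CT22 FPKM. Both ΔRRE values lay above both WT values at CT6, CT18 and CT22, and the genotypes overlapped at CT2, CT10 and CT14. The differences at CT6, CT18 and CT22 were 0.55, 0.46 and 0.37 log2 (unadjusted p = 0.00298, 0.00947 and 0.0302, limma), and Serpinc1 was the 1 gene counted above at CT6 and at CT22. At CT10 the difference was -0.04 log2. In WT the libraries had 463 and 363 FPKM at CT18 and 393 and 503 at CT22, so the size of those differences leans on 1 low library each. Over all time points the difference was 0.25 ± 0.07 log2 (SE; unadjusted p = 0.00252, adjusted p = 0.343, limma), and it was 0.32 log2 without CT10 and ΔRRE CT14 replicate 1 (unadjusted p = 0.000659, limma). It was picked for description after its values were seen. Proc ran from 221 to 285 FPKM in WT (median 246) and from 232 to 296 in ΔRRE (median 260.0) and Proz from 102 to 115 FPKM in WT (median 111) and from 99.0 to 125 in ΔRRE (median 114), with differences of 0.05 ± 0.05 log2 (SE) and 0.06 ± 0.04 log2 (SE).

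Among the recognition molecules and early proteases of complement, Mbl1 and Mbl2 encode mannose-binding lectins, Masp1 and Masp2 the proteases that travel with them, C1ra a protease of the C1 complex, and C2 and C4b the components from which the C3 convertase is formed. C4b has a close copy, C4a, so that its reads are uncertain. Mbl1 and C2 passed the joint rhythm test, with peaks at opposite times of day. Mbl1 had WT values of 118 and 127 at CT2, 96.7 and 124 at CT6, 93.8 and 106 at CT10, 83.1 and 77.8 at CT14, 99.6 and 106 at CT18, and 108 and 115 at CT22 FPKM. In ΔRRE it had 133 and 118 at CT2, 156 and 112 at CT6, 107 and 131 at CT10, 117 and 88.4 at CT14, 102 and 113 at CT18, and 151 and 135 at CT22 FPKM. Both genotypes were lowest at CT14, and both ΔRRE values lay above both WT values at CT10, CT14 and CT22. The peak was at 1.65 h in WT with an amplitude of 0.24 ± 0.05 log2 and at 2.15 h in ΔRRE with 0.20 ± 0.09 (joint adjusted p = 0.037, limma), and 11 of the 24 fits without 1 library lost the call, most without WT CT14 replicate 2 (adjusted p = 0.0905). In level Mbl1 was higher in ΔRRE by 0.22 ± 0.07 log2 (SE; unadjusted p = 0.00421, adjusted p = 0.371, limma).

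C2 had WT values of 38.6 and 47.8 at CT2, 37.3 and 50.5 at CT6, 53.6 and 68.8 at CT10, 55.6 and 63.8 at CT14, 45.7 and 64.8 at CT18, and 42.4 and 46.4 at CT22 FPKM. Its ΔRRE values were 37.6 and 43.4 at CT2, 47.4 and 37.4 at CT6, 58.8 and 47.6 at CT10, 63.9 and 52.3 at CT14, 39 and 52.4 at CT18, and 45.8 and 41.4 at CT22 FPKM. The genotypes overlapped at all 6 time points, with high values from CT10 to CT18 in WT and at CT10 and CT14 in ΔRRE. The amplitude was 0.29 ± 0.09 log2 with a peak at 13.5 h in WT and 0.24 ± 0.08 with a peak at 13.2 h in ΔRRE (joint adjusted p = 0.0257, limma). The call was lost without WT CT2 replicate 1 (adjusted p = 0.0596), WT CT14 replicate 2 (0.0549) or ΔRRE CT14 replicate 1 (0.0507, limma). C2 was lower in ΔRRE by the estimate, -0.11 ± 0.08 log2 (SE, unadjusted p = 0.176, limma). Of the other 5, Mbl2 and C4b were higher in ΔRRE at an unadjusted p under 0.05, by 0.24 ± 0.11 log2 (SE) and 0.22 ± 0.09 log2 (SE), calls lost in 11 and 5 of the 24 fits without 1 library. Mbl2 was, with Serpinc1, higher at CT18 (0.59 log2, unadjusted p = 0.0491, limma), where its WT libraries had 183 and 132 FPKM and its ΔRRE libraries 243 and 225. The 132 FPKM of WT CT18 replicate 2 was the lowest Mbl2 value of the 24 libraries, so the size of this difference leans on it. Masp1, Masp2 and C1ra differed by 0.01, 0.08 and -0.03 log2.

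C3 (chr17:57203970-57228136, minus strand), on which all complement pathways converge, had the largest difference in level of the 39 genes and a mean of 1393 FPKM, the highest after Fga and Fgg. Its WT values were 1009 and 1247 at CT2, 1862 and 1097 at CT6, 1239 and 1093 at CT10, 1050.2 and 1306 at CT14, 895 and 1214 at CT18, and 1365 and 1252 at CT22 FPKM. Its ΔRRE values were 1552 and 1289.7 at CT2, 1649 and 1447 at CT6, 2328 and 1790.1 at CT10, 2079.8 and 989 at CT14, 1237 and 1448 at CT18, and 1365 and 1631 at CT22 FPKM. Both ΔRRE values lay above both WT values at CT2, CT10 and CT18, and the CT14 libraries of ΔRRE were 2.1-fold apart. Over all time points C3 was higher in ΔRRE by 0.35 ± 0.12 log2 (SE; unadjusted p = 0.00707, adjusted p = 0.397, limma), and the exact permutation test gave a two-sided, unadjusted p = 0.013. Leaving out each library in turn kept the estimate between 0.29 and 0.42 log2, without CT10 it was 0.26, and without CT10 and ΔRRE CT14 replicate 1 it was 0.18 (unadjusted p = 0.115, limma). No rhythm was detected in C3 (joint adjusted p = 0.624, limma; amplitude 0.12 ± 0.11 log2 in WT and 0.20 ± 0.14 in ΔRRE). The acute-phase genes were high in the same CT10 and CT14 libraries as C3, and their part in its difference was not tested. Cfb, factor B of the alternative pathway, ran from 342 to 466 FPKM in WT (median 376) and from 344 to 488 in ΔRRE (median 395) and differed by 0.11 ± 0.06 log2 (SE).

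The terminal components C6, C8a, C8b, C8g and C9, which form the membrane pore, did not pass the rhythm test (joint adjusted p of 0.485 to 0.801, limma). In the main fit, which takes no account of replicate number, none had a genotype difference at an unadjusted p under 0.05. Their estimates ran from 0.04 (C6) to 0.26 log2 (C9). C6, C8b and C9 had the widest replicate spread of the 39 genes, with an SD of 0.50 log2 for C6, 0.38 for C8b and 0.38 for C9, and in WT the replicates differed in 1 direction. C6 had WT values of 56.0 and 97.9 at CT2, 56.6 and 83.2 at CT6, 72.3 and 95.3 at CT10, 54.7 and 111 at CT14, 71.2 and 129 at CT18, and 55.1 and 112 at CT22 FPKM. C9 had WT values of 219.8 and 316 at CT2, 203 and 390.2 at CT6, 257 and 354 at CT10, 202 and 412 at CT14, 314 and 369.8 at CT18, and 265 and 311 at CT22 FPKM. Replicate 2 exceeded replicate 1 at all 6 time points in C6, C8a, C8b and C9, by a mean of 0.77 ± 0.25, 0.42 ± 0.28, 0.60 ± 0.32 and 0.57 ± 0.34 log2 (SD over 6 time points), and not in C8g. In all, 7 of the 39 genes did so (the others were C1ra, C2 and Masp2), against 2.24% of all genes tested, and Mbl2 alone had replicate 1 above replicate 2 at all 6, against 2.39%. All 7 were complement genes, and none of the 21 clotting and fibrinolysis genes was among them. In ΔRRE no gene of the 39 had replicate 2 higher at all 6 time points, and in C6 and C9 it was higher at 5 and 4 of 6. The labels do not say what a replicate number stands for, and this pattern was noticed after the values were seen.

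**Figure D4:**
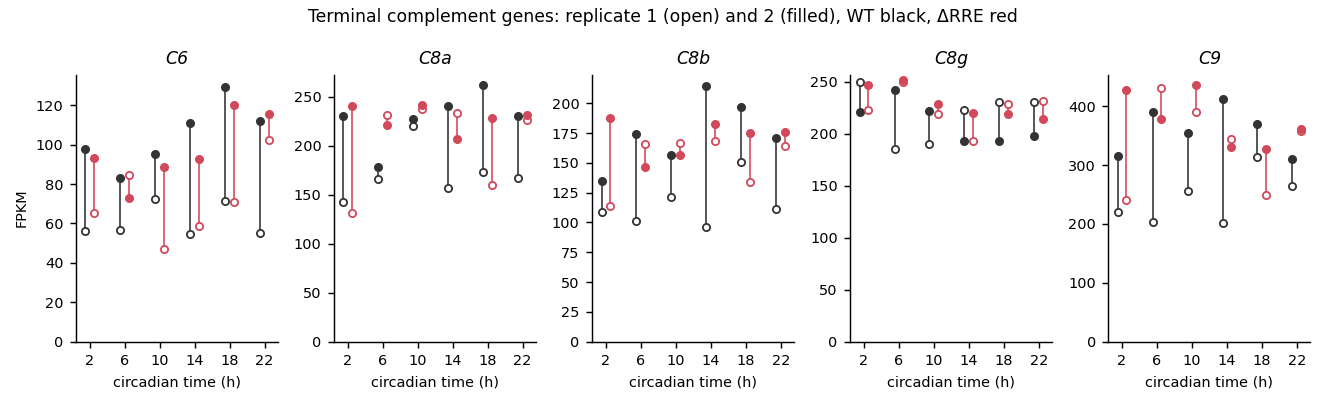
FPKM (y axis, from 0) of the 5 terminal complement genes by circadian time (x axis, hours), with replicate 1 open and replicate 2 filled, WT black and ΔRRE red, and a line joining the replicates of each group. In C6, C8a, C8b and C9 the filled WT point lies above the open one at all 6 time points, and in C8g at 2 of 6.

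The complement regulators were Cfi (factor I, which cleaves C3b and C4b), C4bp (a cofactor of factor I), Vtn (vitronectin, which blocks the terminal complex) and Serping1 (the C1 inhibitor). None passed the joint rhythm test, and Serping1 came nearest (adjusted p = 0.116, limma). Cfi, Vtn and Serping1 were higher in ΔRRE at an unadjusted p under 0.05, by 0.18 ± 0.07 log2 (SE), 0.20 ± 0.08 log2 (SE) and 0.22 ± 0.08 log2 (SE), and C4bp by 0.09 ± 0.08 log2 (SE) was not. Serping1 ran from 302 to 397 FPKM in WT (median 351) and from 312 to 573 in ΔRRE (median 399.6), and its 3 highest values (573, 567 and 487 FPKM) came from ΔRRE CT14 replicate 1 and the CT10 libraries. Vtn had its 3 highest values in the 2 libraries of highest blood marker and acute-phase sums and in ΔRRE CT6 replicate 1 (1594, 1485 and 1313 FPKM). Without CT10 and ΔRRE CT14 replicate 1, Serping1, whose highest values came from the libraries high in acute-phase genes, differed by 0.11 log2 (unadjusted p = 0.132, limma).

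The members with the largest genotype differences were set beside the lists of other genes measured in the same libraries. Of 20 acute-phase genes 19 could be tested, 17 of these were higher in ΔRRE by direction and 8 at an unadjusted p under 0.05, with a median difference of 0.32 log2 and none past adjustment. Hpx (hemopexin, which binds heme) was the most abundant of them, at 5922, 3861 and 6215 FPKM in the 3 libraries that stood apart and between 1654 and 3494 in WT. Saa1 (serum amyloid A, counted beside near-identical copies) had 916, 533 and 1069 FPKM there, 63.2 in ΔRRE CT14 replicate 2, and 20.5 to 445 in WT. Saa1 did not set these libraries apart, with 626 FPKM in ΔRRE CT6 replicate 2 and 552 in ΔRRE CT22 replicate 1. The remaining ΔRRE libraries had 25.4 to 299 FPKM. Of 9 blood markers 6 could be tested, and all 6 were higher in ΔRRE, 5 of them at an unadjusted p under 0.05, with Hbb-bs the most abundant (mean 483 FPKM) and Cd3e and Cd79a near 0 (0.135 and 0.365). The highest blood marker sums, 4325 FPKM in ΔRRE CT10 replicate 1 and 4463 in ΔRRE CT14 replicate 1, came with the highest fibrinogen sums (8996 and 8432). Fibrinogen was high in ΔRRE CT10 replicate 2 (8364 FPKM summed) with blood markers at 1273 FPKM, inside the WT range, and low in ΔRRE CT18 replicate 1 (2986) with blood markers at 2063, above it. No hepatocyte, Kupffer cell, sinusoidal endothelium, stellate cell, cholangiocyte or platelet marker had an unadjusted p under 0.05 for level over all time points. At single time points some did: 1 hepatocyte marker was lower in ΔRRE at CT6, 1 higher at CT10 and 1 lower at CT14, 2 of 4 stellate cell markers were higher at CT18, and the platelet marker at CT22. Kupffer cell markers had none, although 8 of 8 were lower in ΔRRE by direction at CT2 (median -0.86 log2) and 8 of 8 higher at CT22. The part of these lists in the differences of the 39 genes was not tested.

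**Figure D5:**
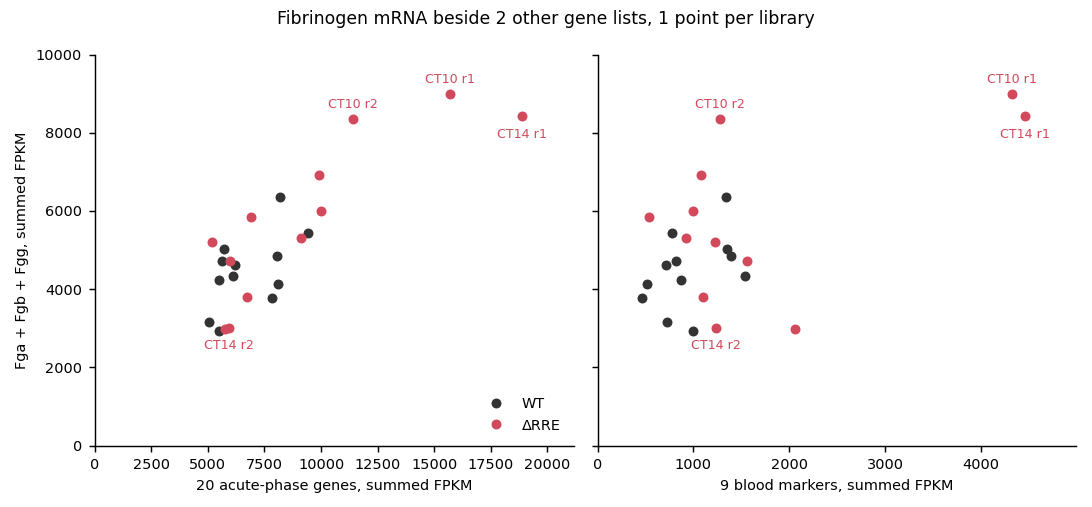
Summed FPKM of the 3 fibrinogen chains (y axis) against the summed FPKM of 20 acute-phase genes (left, x axis) and of 9 blood markers (right, x axis), with 1 point per library, WT black and ΔRRE red. ΔRRE CT10 replicates 1 and 2 and CT14 replicate 1 have 8996, 8364 and 8432 FPKM of fibrinogen, CT14 replicate 2 lies at 3015, and the blood markers of CT10 replicate 2 lie among those of the other libraries.

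A list of 48 other genes of both pathways held 30 that could be tested. Of these, 5 passed the joint rhythm test, against 18.7% of all genes tested, 1 passed in WT (C1rl, adjusted p = 0.0188, limma) and 1 in ΔRRE (C4a, adjusted p = 0.0347, limma). The 5 were C1rl (a protease like C1r), C4a, Fcna and Colec10 (lectins that recognise microbes) and F3 (tissue factor, which starts clotting). C1rl peaked at 3.53 h in WT with an amplitude of 0.29 log2, near the time of the fibrinogen chains. In level, 24 of the 30 were higher in ΔRRE by direction, against 65.5% of all genes tested. At an unadjusted p under 0.05, 4 were higher (among them C1rl, Serpina10, the protein Z-dependent inhibitor, and Kng2), against 7.16%, 0 were lower, and the median difference was 0.08 log2.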

How the data were processed

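Liver poly(A) RNA was sequenced with a kit that keeps strand, and the strand setting used in counting is not given in the sources used here. The authors deposited 1 table of FPKM values per library, and the submitters' processing notes name Trimmomatic 0.39, HISAT2 2.1.0, StringTie 1.3.5 and mm10. Total FPKM ran from 554170 to 624746 per library. No read counts were used here, so the depth behind a value is unknown, and no interval from counts was made. The 24 libraries were grouped by the genotype, time and replicate number in their labels. The study's methods count livers in each group, the labels give replicates only a number, and the p-values measure the spread between these libraries.

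Values were tested as log2(FPKM + 0.1), a scale that understates changes of low genes, for the 11244 genes whose mean reached 1 FPKM, with limma 3.58.1 (trended prior) in R 4.3.3. The joint, WT and ΔRRE rhythm tests and the test of their difference were harmonic regressions with a period of 24 h, in place of the study's cycling tool, which was not used here. Level was tested as a genotype term beside the time points, and at single time points from the 12 group means with 1 pooled spread. P-values were adjusted by the Benjamini-Hochberg method over all genes tested, and unadjusted ones are named as such. Exact permutation tests exchanged genotype labels within time points.

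The 39 genes and the other lists were chosen with earlier results of these data known. Values in every library are given for the genes that passed the joint rhythm test, the 3 with the largest genotype difference among those at an unadjusted p under 0.05, the 3 that moved most without ΔRRE CT14 replicate 1, and the 3 most abundant; F2, F11, F12, Plg, Serpinc1, Mbl2, C6, C9, Serping1 and Vtn were described after their values were seen. Reads of C4b and C4a, of Kng1 and Kng2, and of the Saa genes may be shared. Of the list of other pathway genes, 1 that is counted is not reported here by its own values. Coordinates are from GENCODE M21 (GRCm38) and promoter sequences from RefSeq (GRCm38.p6), which held 30 of the 39 genes. Tables were made with Python 3.11.15, NumPy 2.4.6 and pandas 2.3.3, and figures with matplotlib 3.10.9. The test scripts were tested on simulated data. Alternatives were other pseudocounts (1 and 0.01 FPKM), a filter left out or raised to 5 FPKM, rescaling by the median of ratios, a prior without trend, time point as a factor, a spread shared by both genotypes, the study's 3 criteria for cycling, a replicate block, and leaving out each library or time point.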

Additional observations from a re-analysis of the deposited data

How the results depend on the processing

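The differences in rhythm and in level over all time points gave 0 of the 39 genes at an adjusted p under 0.05 by limma under every alternative run, and the other counts moved. Of the genes that passed the joint rhythm test (8), there were 3 with no filter on low values, 2 with time point as a factor and 4 to 10 when each library was left out in turn. Of those in WT (6), there were 1 with no filter, 3 after rescaling by the median of ratios, 1 with time point as a factor, 3 with a spread shared by both genotypes and 2 to 6 without each library. For ΔRRE (0), there was 1 gene with a mean of at least 5 FPKM, 3 with the shared spread, 10 with the study's 3 criteria applied to the harmonic p (9 in WT), and 0 to 1 without each library. By the study's criteria, smaller shares of the 39 than of all genes tested passed in both genotypes, with the counts over all genes below. A count of the 39 without a count over all genes, here or below, has no background. The genes higher in ΔRRE over all time points at an unadjusted p under 0.05 (17) numbered 10 after rescaling and 12 to 20 without each library. Those at CT10 (8) and those at an adjusted p under 0.05 at a single time point (0) also moved when libraries were left out. These fits leave a group with 1 library. Leaving out whole time points was chosen after seeing the data. Without CT2, CT6, CT10 and CT18 the joint count was 3, 5, 3 and 2. Of all genes tested 10.4% passed without CT10, and counts over all genes without CT2 and CT6 are not given here. The WT count was 2 without CT2, CT6, CT18 or CT22, 3 without CT10 and 1 without CT14, and without CT22 the ΔRRE count was 1. The level count was 7 without CT10 (6.11% of all genes tested), 11 without CT22 and 4 without CT10 and ΔRRE CT14 replicate 1 (5.08%). Counts over all genes are not given here for level or ΔRRE without CT22, so those 2 counts have no background. The fits without a library or time point hold fewer libraries, and the cause of the other shifts was not tested. The median sum of the 39 genes per library, 14816 FPKM, was 8715 without the fibrinogen chains and C3.

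Over all genes the joint count (2107) was 1087 with time point as a factor, and 1174, 1153 and 1217 without CT10, CT14 and CT18. The WT count (1157) was 519 with no filter, 361 with time point as a factor and 4156 by the study's criteria. It was 632, 739, 525, 563, 715 and 670 without CT2 to CT22 in turn. The ΔRRE count (514) was 197 with no filter, 957 with the shared spread, 3985 by the study's criteria, and 257, 142 and 237 without CT10, CT14 and CT18. The level count (805) was 1238 with no filter and 419 after rescaling. The CT10 count (396) was 976 with no filter and 240 with a mean of at least 5 FPKM, and the calls at single time points (7) were 74 and 3. With the replicate block the joint count was 10 (F11 and Plg added), the WT count 8 (C2 and Mbl2 added), the ΔRRE count 0, the level count 19 and the CT10 count 9, while over all 11244 genes these counts were 2213, 1189, 556, 887 and 461. Deviations from the group means of same-numbered libraries correlated between -0.14 and 0.30 over 66 pairs of groups (median 0.07), and not every pair was above 0.1, so the numbers were not taken to pair the libraries. In WT the replicates of 7 complement genes nevertheless differed in 1 direction at all 6 time points, and with the block C1ra was lower in ΔRRE at CT10 at an unadjusted p = 0.0492 (limma, -0.28 log2; 0.123 without the block). The number of reads behind each value is unknown, so what depth limits cannot be given here.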
